A study of Mus musculus with 20 samples.

Results

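Cells from the spinal cords of uninjured (sham) mice fed PLX5622 were compared with cells from sham mice fed vehicle chow, cluster by cluster. The count table of the study holds 21016 cells, and the columns of the 2 sham libraries gave 2287 of them, 1795 under vehicle and 492 under PLX5622. Each cell carried 1 of 14 cluster numbers. Gene levels were compared inside the 5 clusters that held at least 20 cells in both libraries, which took in 1209 of the vehicle cells (67.4%) and 377 of the PLX5622 cells (76.6%).

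All mice were female C57BL/6J, aged 8 to 10 weeks. They ate vehicle chow or chow with PLX5622 (1200 ppm per the labels) for 2 weeks before a sham operation, a laminectomy at T9 without injury to the cord, and stayed on the diet to the end. Each sham label names both end points of the study, 7 and 28 days, so a sham library was not tied to a single day. A piece of cord 1 cm long around T9, with its meninges, was taken without perfusion, so blood cells remained in it, and the cells were freed of myelin and of dead cells. Cords of several mice went into 1 pool per diet. With 1 pool on each side no test between mice was possible and no p-value is given. The ranges in parentheses are exact 95% intervals that cover counting error only, not differences between mice, cages, dissections or libraries.

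PLX5622 blocks the kinase of the receptor for colony stimulating factor 1, encoded by *Csf1r*. Microglia, the resident macrophages of the central nervous system, need signals through this receptor to survive, which is why the drug is used to remove them. Astrocytes, which take up glutamate and buffer potassium, ependymal cells, which line the central canal and beat cilia, and endothelial cells, which form the barrier to the blood, do not depend on the receptor in this way. Immediate early genes such as *Fos* and *Egr1* encode transcription factors that cells switch on within minutes of a stimulus, tissue dissociation among them.

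The vehicle library held 7185077 UMIs (unique molecular identifiers, each a captured transcript) and the PLX5622 library 2606149, and the median cell had 3176 and 3448.5 UMIs. No barcode occurred in both. The clusters were checked against markers: every detected marker was highest in its own cluster for the microglia-like (8 of 8), endothelial-like (6 of 6), astrocyte-like (6 of 6), T cell-like (5 of 5) and ependymal-like (6 of 6) cells. The markers of natural killer cells, such as *Ncr1* and *Klrb1c*, were also highest in the T cell-like cluster. In the monocyte-like cluster 5 of 7 monocyte markers were highest, and so were the markers of border macrophages, such as *Mrc1* and *Pf4*. For a cluster led by *Mgp* and *Igf2*, called cluster 13 here, only 2 of 6 leptomeningeal markers were highest. Levels are given as CPM, the UMIs of a gene out of 1000000 UMIs of its cluster in a library, and ratios are log2 of PLX5622 over vehicle, so that negative values mean a lower level under PLX5622. Genes were compared where at least 20 UMIs were expected in the shallower library.

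Microglia-like cells made up 674 of 1795 cells (37.5%, 35.3 to 39.8%) under vehicle and 29 of 492 (5.89%, 3.98 to 8.36%) under PLX5622. Monocyte-derived macrophage-like cells were 185 cells (10.3%, 8.94 to 11.8%) under vehicle and 9 (1.83%, 0.840 to 3.44%) under PLX5622. The intervals of these 2 myeloid clusters did not overlap between the diets. Monocyte-like cells numbered 75 (4.18%) and 14 (2.85%), and neutrophil-like cells 64 (3.57%) and 11 (2.24%), with overlapping intervals in percent of all cells. Astrocyte-like cells held the largest share under PLX5622, 204 cells (41.5%, 37.1 to 46.0%), against 310 (17.3%, 15.5 to 19.1%) under vehicle.

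Because the shares of a library sum to the whole, fewer cells in a large cluster raise the shares of the rest. Among cells outside the microglia-like cluster, astrocyte-like cells were 27.7% under vehicle and 44.1% under PLX5622. Endothelial-like cells were 7.31% (5.86 to 9%) and 16.4% (13.2 to 20.1%) on that base, from 82 and 76 cells. Ependymal-like cells were 6.78% and 10.2%, from 76 and 47 cells, and T cell-like cells 5.98% and 4.54%, from 67 and 21 cells. The shares of astrocyte-like and endothelial-like cells thus stayed apart with the microglia-like cells left out. Monocyte-like cells, whose cluster was also highest in border macrophage markers, were 6.69% (5.30 to 8.31%) and 3.02% (1.66 to 5.02%) on that base. Neutrophil-like cells were 5.71% (4.42 to 7.23%) and 2.38% (1.19 to 4.21%), so the intervals of these clusters no longer overlapped. Erythroid-like cells, red blood cell precursors or red cells left in the unperfused tissue, were 10.7% and 4.10% on the same base.

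**Figure D1:**
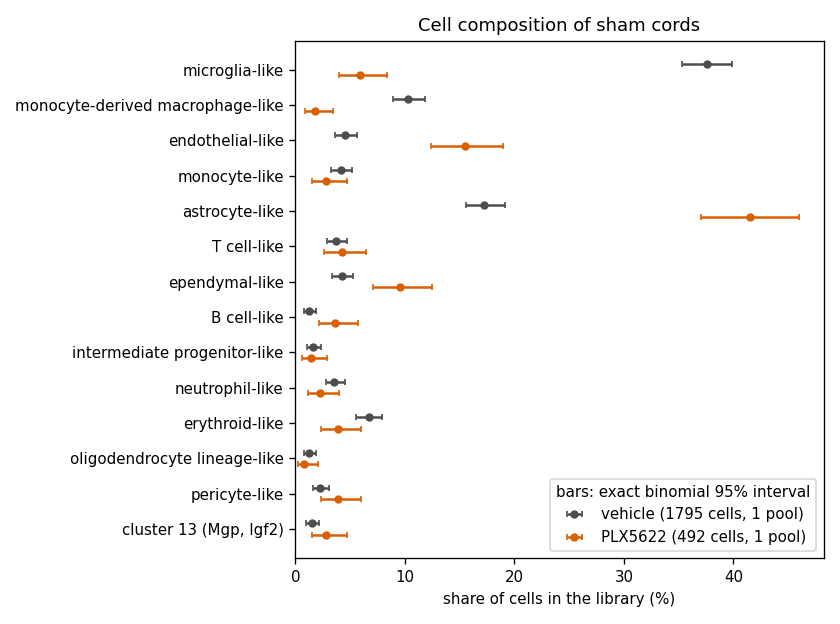
Share of each of 14 clusters in the vehicle library (grey, 1795 cells) and the PLX5622 library (orange, 492 cells) of sham cords, in percent of all cells, with exact binomial 95% intervals. Microglia-like cells are 37.5% of the vehicle cells and 5.89% of the PLX5622 cells, while astrocyte-like and endothelial-like cells hold larger shares under PLX5622.

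The 29 microglia-like cells under PLX5622 carried the genes of resting microglia, on the median, near the vehicle level. Of 18 homeostatic microglia genes compared, 9 had a ratio above 0 and 9 below, their median was 0.01, and none was past 2-fold. The whole counting interval lay above 0 for 6 of the 18 and below 0 for 4. The median over all 990 genes compared in this cluster was -0.05. *Csf1r*, which encodes the receptor the drug blocks, stood at 3862 CPM under vehicle (8094 UMIs) and 3855 CPM under PLX5622 (546 UMIs), a ratio of -0.00 (-0.13 to 0.12). *P2ry12*, an ADP receptor that guides microglial processes, was at 2409.8 and 2111 CPM, and *Tmem119*, a microglial membrane protein, at 1385 and 1737 CPM. The highest ratio of the list was that of *Cst3*, a secreted cathepsin inhibitor, at 0.54 (0.50 to 0.57), followed by *Sparc*, a matrix glycoprotein, at 0.51 (0.40 to 0.62). The lowest was that of *Mef2c*, a transcription factor, at -0.71 (-1.15 to -0.30). Each of the 29 cells held at least 3 UMIs of the homeostatic markers, and 0 of them held 3 UMIs of border macrophage markers such as *Mrc1*, which allows a share of up to 11.9%. Cells were placed in this cluster by their expression, and the study names it by *P2ry12*, *Siglech* and *Tmem119*, which are on the list. A cell that had lost such genes could lie in another cluster, so these values describe only the cells that stayed in this one.

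Immediate early genes were lower in the microglia-like cells under PLX5622. All 19 genes of this list that were compared had a ratio below 0, with a median of -0.63, and for 15 of them the whole counting interval lay below 0. Of the 19, 6 were lower by 2-fold or more. Over all genes of the cluster 2.73% were lower by 2-fold or more and 0.202% were higher. *Egr1*, a zinc finger transcription factor, was at 1341 CPM (2810 UMIs) under vehicle and 282 CPM (40 UMIs) under PLX5622, a ratio of -2.25 (-2.74 to -1.80). *Dusp1*, a phosphatase that turns off MAP kinases, was at 567 and 184 CPM (-1.63, -2.25 to -1.07). *Klf6*, a Krüppel-like factor, was at 835 and 282 CPM (-1.56) and *Ier2* at 643 and 226 CPM (-1.51). *Fos*, a subunit of the AP-1 factor, was at 1563 and 720.2 CPM (-1.12, -1.42 to -0.83), and its partner *Jun* at 3811 and 2111 CPM (-0.85, -1.02 to -0.69). The ratios nearest 0 were those of *Cebpb*, a leucine zipper factor, at -0.16 (-0.63 to 0.28) and of *Btg2*, an anti-proliferative gene, at -0.18 (-0.33 to -0.03).

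The lower level was spread over cells. With every cell thinned to 1000 UMIs, which kept 548 vehicle and 25 PLX5622 cells and left out 126 and 4, the median cell held 24 UMIs of the immediate early list under vehicle and 11 under PLX5622. The middle 80% of cells ran from 7 to 40 under vehicle and from 2.4 to 27.8 under PLX5622, so the cells of the 2 pools overlapped widely. In the other 4 clusters the median cell held at most 10 under vehicle and 8.5 under PLX5622. A UMI of *Egr1* was found in 58.4% (54.1 to 62.6%) of thinned vehicle cells and in 3 of 25 PLX5622 cells (12.0%, 2.55 to 31.2%). Without thinning these shares were 70.8% and 31.0%, at a median depth of 3178 and 5000 UMIs. Astrocyte-like cells, taken as the background for this gene, showed it in 1.78% and 0.787% of thinned cells. For *Fos* the thinned shares were 56.2% and 28.0%, against 68.7% and 48.3% without thinning and 2.67% and 0.787% in thinned astrocyte-like cells.

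In the pools of injured mice the list took other values. Microglia-like cells under PLX5622 numbered 61 at 7 days and 126 at 28 days after contusion, against 2154 and 3974 under vehicle, and the median of the list was 0.58 and -0.20. The ratio of *Egr1* was -0.26 and -1.38, that of *Dusp1* 0.97 and 0.13, and that of *Fos* 0.50 and -0.30. The median of the list was thus below 0 in the sham pair and at 28 days and above 0 at 7 days, and whether the pairs differ beyond the spread between pools was not tested.

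**Figure D2:**
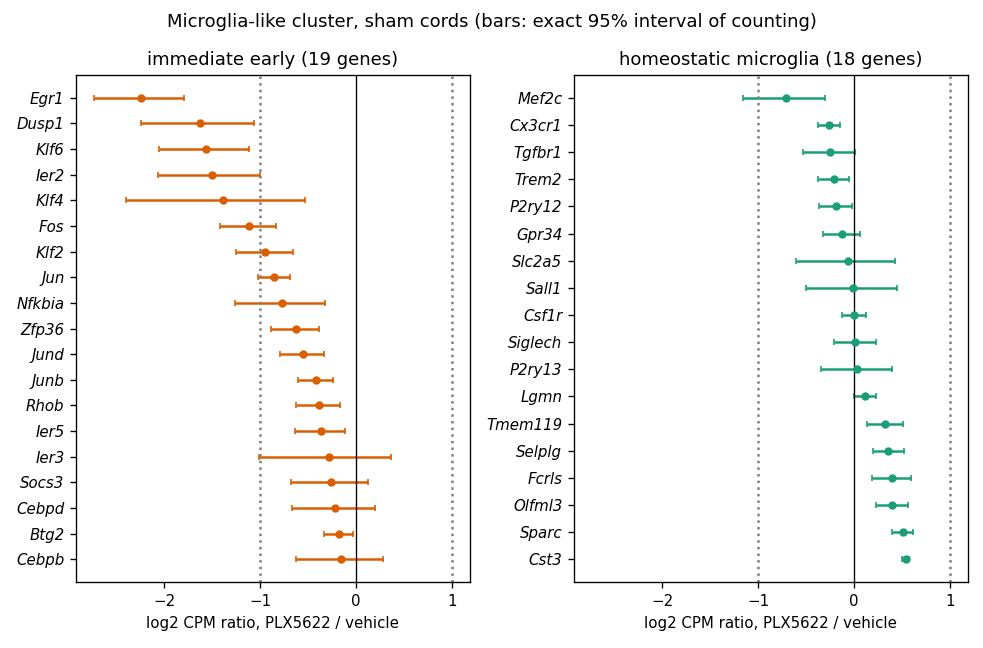
Log2 CPM ratio (PLX5622 over vehicle) of each immediate early gene (left, 19 genes) and homeostatic microglia gene (right, 18 genes) in the microglia-like cluster of sham cords; bars are exact 95% counting intervals and dotted lines mark 2-fold. All immediate early genes lie left of 0, from -2.25 for *Egr1* to -0.16 for *Cebpb*, while the homeostatic genes lie on both sides, from -0.71 to 0.54.

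The promoters of these genes were read from RefSeq for the GRCm38.p6 build, where 16 of the 19 genes had a window of 250 bases before the start. The core of the cyclic AMP response element, TGACGT on either strand (ACGTCA on the other), was present in 3 of the 16, *Btg2*, *Dusp1* and *Fos*, and in 6.469% of all 32851 windows. The AP-1 motif TGAGTCA, searched on both strands, was in 0 of the 16 and in 4.463% of all windows. A kappa B motif of 10 letters, not printed here, was in 1 of the 16, that of *Nfkbia* (6.25%), and in 0.085% of all windows. The 150 bases upstream of *Fos* (chr12:85473740-85473889, plus strand) and of *Dusp1* (chr17:26508473-26508622, minus strand) are printed because both genes were lower by more than 2-fold and hold the motif in this stretch. Capitals mark the motif. In *Dusp1* the 2 overlapping matches form the palindrome TGACGTCA. A match in letters is a description of the sequence only.
Fos: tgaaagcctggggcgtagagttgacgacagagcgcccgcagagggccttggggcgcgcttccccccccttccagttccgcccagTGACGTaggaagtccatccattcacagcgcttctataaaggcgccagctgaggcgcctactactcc
Dusp1: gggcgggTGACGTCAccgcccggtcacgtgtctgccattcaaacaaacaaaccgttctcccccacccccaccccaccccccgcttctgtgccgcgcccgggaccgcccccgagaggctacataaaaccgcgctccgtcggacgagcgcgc

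Chemokines showed the lowest single ratio of the microglia-like cluster. *Ccl4*, which draws in monocytes and T cells, had 373 UMIs under vehicle and 1 under PLX5622, a ratio of -4.66 (-9.96 to -2.17). *Ccl3*, a related chemokine, had 759 and 15 UMIs, a ratio of -1.77 (-2.62 to -1.04). The vehicle UMIs were not the product of a single cell, since the top cell held 7.51% of those of *Ccl4* and 3.29% of those of *Ccl3*. In thinned cells *Ccl4* was found in 9.49% of vehicle cells and in 0 of 25 PLX5622 cells, which allows a share of up to 13.7%, so the 2 shares were not distinguishable by this count. Without thinning the shares were 13.8% and 3.45%. In thinned astrocyte-like cells it was found in 0 of 225 and 0 of 127, and without thinning in 0.645% and 0.490% of them. *Ccl3* was found in 18.1% (14.9 to 21.5%) of thinned vehicle cells and in 1 of 25 PLX5622 cells (4%, 0.10 to 20.4%), with overlapping intervals. Without thinning its shares were 26.4% and 24.1%, and in thinned astrocyte-like cells 0.444% and 0%. The other members lay nearer 0, from *Ccl6* at -0.67 (-1.46 to 0.03) to *Ccl9* at 0.07 (-0.56 to 0.65). The 7 chemokine genes compared had a median of -0.32. At 7 and 28 days after injury the ratio of *Ccl4* was -0.63 and -1.24.

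*Apoe*, the main lipid carrier of the nervous system, was at 9039 CPM under vehicle and 4363 CPM under PLX5622 (-1.05, -1.17 to -0.94). The size of this difference depended on how cells were weighted. The ratio was -0.50 with each cell weighted alike, -0.20 after thinning, with 4427 UMIs in 548 cells and 176 in 25, and -1.33 without the top cells. Leaving out the top cells tends to lower ratios in this cluster, as described below. The share of thinned cells with an *Apoe* UMI was 54.2% and 56.0%. Unthinned shares were 70.0% and 75.9%, and thinned T cell-like cells showed it in 18.0% and 14.3%. The lipid efflux pump *Abca1* was lower too (-0.94, -1.79 to -0.20), and the lipoprotein receptor *Lrp1* was higher (0.81, 0.37 to 1.24). Of 9 disease-associated microglia genes compared, 5 were below 0 and 4 above. *Tyrobp*, the adaptor of *Trem2*, stood at 0.66 (0.53 to 0.78) and the protease *Ctsd* at 0.63 (0.55 to 0.70). The median was 0.09 over 16 lysosomal genes, 0.08 over 7 complement genes, with *C1qa* at 0.56 (0.49 to 0.62), and 0.20 over 6 heat shock genes, all 6 of which were above 0.

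The genes past 2-fold upwards in this cluster were *Sdf2l1*, a chaperone partner of the endoplasmic reticulum, at 166 and 360.1 CPM (1.12, 0.67 to 1.55) and the elongation factor subunit *Eef1g* at 158 and 318 CPM (1.01, 0.53 to 1.46). A single PLX5622 cell held 17.6% and 15.6% of their UMIs, and without the top cells the ratios were 0.87 and 0.80, short of 2-fold. The top cell is a larger part of 29 PLX5622 cells than of 674 vehicle cells, so leaving it out lowers ratios here in general. Genes past 2-fold went from 2 higher and 27 lower to 0 higher and 61 lower. This setting therefore cannot show whether the 2 genes rested on a single cell. Ranked by the bound nearest 0, the ribosomal protein genes *Rps28* and *Rpl28*, both at 0.92, and *Serf2* at 0.97 (0.68 to 1.24) stood above *Sdf2l1* and *Eef1g*. *Tsc22d3*, a glucocorticoid target, was lower at 311 and 127 CPM (-1.29, -2.06 to -0.62). Of 5 glycolytic genes 4 were above 0, the highest being the pyruvate kinase gene *Pkm* at 0.95 (0.44 to 1.43).

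Astrocyte-like cells, 310 under vehicle and 204 under PLX5622, had a median ratio of 0.02 over the 4735 genes compared, of which 1.27% were higher and 1.25% lower by 2-fold or more. Genes of transport and coupling were near the vehicle level. Of 25 such genes 17 were above 0, the median was 0.14 and none was past 2-fold. The glutamate transporter gene *Slc1a2* was at 6357 and 6191 CPM (-0.04, -0.10 to 0.02) and the water channel *Aqp4* at 2866 and 2689 CPM (-0.09, -0.19 to 0.00). The highest were the glycine transporter *Slc6a9* at 858 and 1321 CPM (0.62, 0.47 to 0.77) and the GABA transporter *Slc6a11* at 0.50 (0.36 to 0.65). The lowest was the potassium channel *Kcnj10* at -0.18 (-0.35 to -0.01).

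Single genes stood out above that level. *Acsbg1*, an acyl-CoA synthetase of astrocytes, was at 155 CPM (121 UMIs) under vehicle and 440.3 CPM (258 UMIs) under PLX5622, a ratio of 1.50 (1.19 to 1.83). *Csrp1*, a LIM domain protein that binds the actin cytoskeleton, was at 239 and 510.2 CPM (1.1, 0.83 to 1.37). *Mt3*, the brain metallothionein that binds zinc and copper, was at 1967 and 3681 CPM (0.90, 0.81 to 1.00), *Mt1* at 4620 and 6777 CPM (0.55, 0.49 to 0.62) and *Mt2* at 1132 and 1242 CPM (0.13, -0.01 to 0.28). The top cell held at most 4.67% of the UMIs of any of these genes on either side. After thinning, 12.0% (8.06 to 17.0%) of vehicle and 33.9% (25.7 to 42.8%) of PLX5622 cells had a UMI of *Acsbg1*. For *Csrp1* these shares were 20.9% and 40.9%, and for *Mt3* 67.1% and 85.8%. The unthinned shares were 29.0% and 52.5% for *Acsbg1*, 37.1% and 56.4% for *Csrp1* and 75.5% and 81.4% for *Mt3*, at a median depth of 2024 and 1594 UMIs. In thinned microglia-like cells of the vehicle pool, the background here, the shares were 0% (0 of 548), 0.182% and 1.64%.

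The gene of largest ratio was *Prdx5*, a mitochondrial peroxidase, with 11 UMIs under vehicle and 47 under PLX5622 (2.51, 1.54 to 3.60). It was followed by *Arf5*, a small GTPase of vesicle traffic, with 20 and 66 UMIs (2.13, 1.39 to 2.93), and by *Dlg4*, a scaffold protein of synapses, with 14 and 38 UMIs (1.85, 0.94 to 2.85). *Shroom3*, an actin-binding protein, had 22 and 48 UMIs (1.54) and *BC002163* 53 and 114 (1.52, 1.03 to 2.02). These genes rested on few UMIs per pool. *Gfap*, the intermediate filament gene of reactive astrocytes, was at 119 and 237 CPM (0.99, 0.60 to 1.39). It was the highest of the 3 reactive astrocyte genes with enough UMIs, with *Cryab* at 0.25 (-0.10 to 0.61) and *S100a10* at -0.15 (-0.67 to 0.37). Of 24 cholesterol and fatty acid synthesis genes 17 were above 0, from *Sqle* at -0.35 (-0.72 to 0.02) to *Mvd* at 0.68 (0.22 to 1.15), with a median of 0.12. Of 9 genes that act on synapses 5 were above 0, with a median of 0.02. Of 80 nuclear genes of oxidative phosphorylation 62 were above 0, with a median of 0.20.

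The injured pairs of pools were read on another baseline. The median ratio over all genes of the astrocyte-like cluster was 0.39 at 7 days and 0.45 at 28 days, and the 12 genes of the myeloid list described below took 33213 and 32376 CPM there under vehicle against 3752 and 2646 under PLX5622. On that scale the ratio of *Acsbg1* was 1.68 and 1.55, that of *Csrp1* 1.46 and 1.88, that of *Mt3* 1.17 and 1.27, that of *Shroom3* 1.81 and 1.62, and that of *BC002163* 1.81 and 2.13. These 5 genes were higher under PLX5622 in all 3 pairs, each by more than the median over all genes of its pair. The 25 genes of transport and coupling had medians of 0.99 and 1.07 in the injured pairs, with 1 and 0 of them below 0. A higher ratio after injury was thus common among astrocyte genes, and *Mt3* lay close to those medians. *Prdx5* was at 2.81 and 0.63 and *Arf5* at 1.17 and -0.87.

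**Figure D3:**
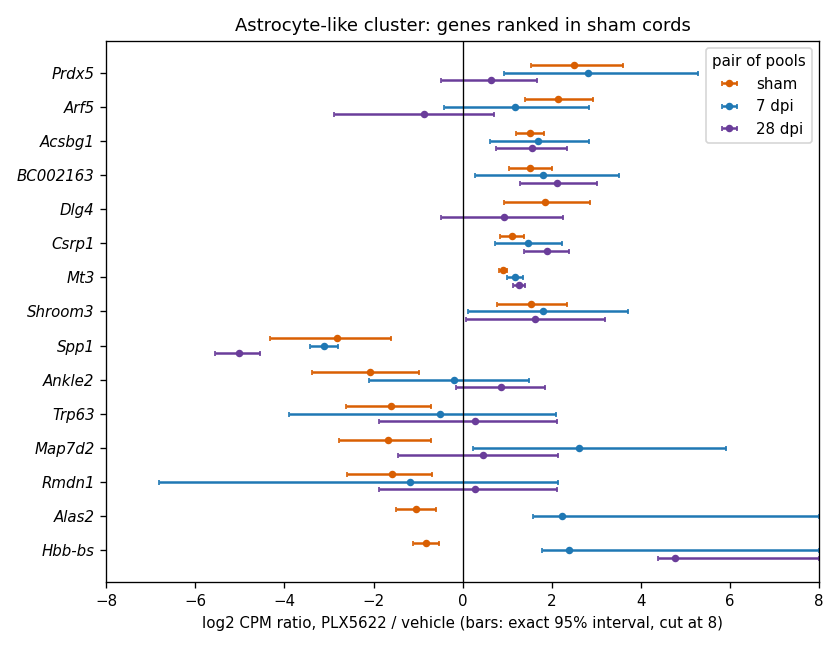
Log2 CPM ratio (PLX5622 over vehicle) in the astrocyte-like cluster for the 8 genes ranked highest and 7 of those ranked lowest in sham cords, in the sham pair (orange) and in the pairs at 7 dpi (blue) and 28 dpi (purple); bars are exact 95% counting intervals. *Acsbg1*, *Csrp1*, *Mt3*, *Shroom3* and *BC002163* lie above 0 in each pair, and the genes ranked lowest in sham cords lie between -1.19 and 4.77 in the injured pairs, apart from *Spp1*.

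Transcripts of myeloid cells inside the astrocyte-like cluster were much lower under PLX5622. All 12 genes of a myeloid list were below 0, 11 of them by 2-fold or more, with a median of -3.76. *C1qa*, a subunit of complement C1q, had 306 UMIs under vehicle and 19 under PLX5622, *Ctss*, a lysosomal protease of macrophages, 243 and 5, and *P2ry12* 61 and 1. *Ctsd*, which astrocytes also transcribe, was at -0.43 (-0.62 to -0.24). Few cells carried most of these UMIs: the 5 top vehicle cells held 71.4% of 2205, and a single cell held 818. The top cell held 49.3% of the *C1qa* UMIs of the cluster under vehicle. In the median cell the list took 691 CPM under vehicle and 427 CPM under PLX5622. At least 3 of these UMIs were found in 110 of 310 vehicle cells (35.5%) and in 59 of 204 PLX5622 cells (28.9%). *Ctsd* made up 29.5% of the UMIs of the list under vehicle and 83.4% under PLX5622. The median cell and the shares of cells, above all under PLX5622, thus largely count *Ctsd* and are no measure of myeloid transcripts alone. A UMI of *C1qa* was found in 4.89% of thinned vehicle cells and 2.36% of thinned PLX5622 cells, and without thinning in 9.03% and 6.37%.

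The same list was measured in every cluster. It took 2019 CPM under vehicle and 370.5 CPM under PLX5622 in endothelial-like cells, and 5464 and 2476 CPM in T cell-like cells. The 5 top vehicle cells held 80.8% of the 624 endothelial-like UMIs, and the median endothelial-like cell was at 509 and 211 CPM. At least 3 UMIs of the list were found in 19.5% and 31.6% of endothelial-like cells and in 91.0% and 95.2% of T cell-like cells. In ependymal-like cells the order of the summed levels was turned, with 287 and 723 CPM, and a single PLX5622 cell held 176 of the 268 UMIs there. The median ependymal-like cell was at 247 and 254 CPM. A UMI of *C1qa* was found in 13.2% and 4.26% of ependymal-like cells, and after thinning in 3 of 60 and 1 of 43, so the turned order of the sum rested on that cell. *Csf1r* itself was at 1769 and 2463 CPM in the macrophage-like cluster (2509 and 160 UMIs). In endothelial-like cells it had 24 and 1 UMIs, and in astrocyte-like cells 51 and 4. How much of these UMIs is free RNA and how much comes from droplets that hold a myeloid cell was not tested.

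**Figure D4:**
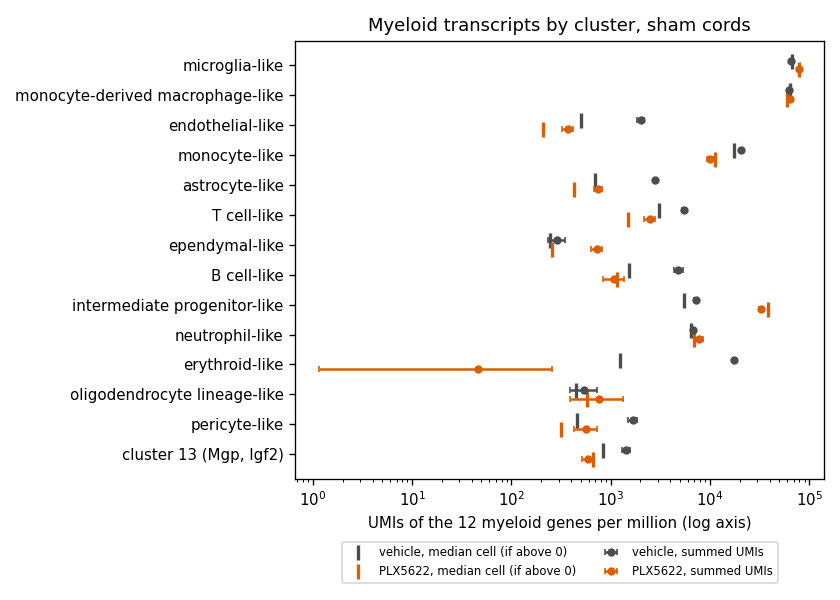
Summed level of the 12 myeloid genes in each cluster, in CPM (log axis) in sham cords, for vehicle (grey) and PLX5622 (orange); points are summed UMIs with exact Poisson 95% intervals and vertical ticks the median cell. In astrocyte-like and endothelial-like cells the summed level lies well above the median cell under vehicle and nearer to it under PLX5622, and the ependymal-like cluster has the opposite order of summed levels, 287 and 723 CPM. The list includes *Ctsd*, which is 83.4% of its UMIs in astrocyte-like cells under PLX5622.

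Other genes lower in astrocyte-like cells had low counts. *Spp1*, osteopontin, had 56 and 6 UMIs (-2.81, -4.32 to -1.60), but 78.6% of the vehicle UMIs lay in a single cell and the ratio without the top cells was -1.17. *Ankle2*, *Map7d2*, *Trp63* and *Rmdn1* lay between -2.08 and -1.59, with 45 to 53 UMIs under vehicle and 8 to 13 under PLX5622. *Alas2* and *Hbb-bs*, which red blood cells and their precursors carry in large amounts, were at -1.04 and -0.82. Beside this, erythroid-like cells were 6.69% of the vehicle cells and 3.86% of the PLX5622 cells. Of 11 immediate early genes 9 were below 0 and the median was -0.47. *Btg2* had 97 and 13 UMIs (-2.49, -3.45 to -1.65) and *Jun* 98 and 29 (-1.34). *Egr1* was above 0 (0.84, 0.07 to 1.63), but a single cell held 97.1% of its 35 UMIs under PLX5622, and without the top cells the ratio was -3.68.

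Endothelial-like cells, 82 and 76 in number, had barrier genes near the vehicle level. Of 21 genes of the blood-spinal cord barrier 7 were above 0 and 14 below, with a median of -0.10 and none past 2-fold. Over all 2944 genes compared in the cluster the median was -0.01, 2% were higher and 1.6% lower by 2-fold or more. *Cldn5*, the main claudin of tight junctions, was at 6765 and 7243 CPM (0.10, 0.02 to 0.17). *Bsg*, which encodes basigin, was at 14141 and 16514 CPM (0.22, 0.17 to 0.28). The lowest were *Tfrc*, the transferrin receptor that carries iron across the barrier, at 501 and 296 CPM (-0.76, -1.08 to -0.44), *Itm2a* at 6215 and 4721 CPM (-0.40, -0.48 to -0.31) and the organic anion transporter *Slco1a4* at -0.38 (-0.50 to -0.26).

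Genes of endothelial activation differed in direction. *Vcam1*, an adhesion molecule for leukocytes, had 14 UMIs under vehicle and 70 under PLX5622 (1.39, 0.55 to 2.34), and the von Willebrand factor gene *Vwf* 60 and 169 (0.57, 0.13 to 1.02). *Ly6c1* was at 6085 and 4563 CPM (-0.42, -0.50 to -0.33) and *Cd34* at 1061 and 777 CPM (-0.45, -0.66 to -0.24). The 6 genes of this list had a median of -0.04. At 7 and 28 days after injury the ratio of *Vcam1* was -2.58 and -1.80. Of 14 interferon-stimulated genes 11 were above 0, with a median of 0.13, and 2 were higher by 2-fold or more, *Oasl2* (1.13, 0.23 to 2.12) and *Irf9* (1.05, 0.21 to 1.97). *Rsad2*, viperin, was at -0.90 (-1.47 to -0.34), and the most abundant of them, *Ifitm3*, at 0.14 (-0.02 to 0.30). Of 7 genes of the VEGF and angiopoietin pathways 5 were above 0, with *Flt1* at 0.00 (-0.14 to 0.15).

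Stress and immediate early genes of endothelial-like cells were mostly below 0. Of 16 immediate early genes 13 had a ratio below 0, with a median of -0.28, and *Fos* was at 324 and 156 CPM (-1.05, -1.47 to -0.63). Of 10 heat shock genes 8 were below 0, the lowest being *Hspa1a* at -1.41 (-2.04 to -0.80) and *Hspa1b* at -1.12 (-1.89 to -0.35). The glucocorticoid target *Tsc22d3* was at 404 and 177 CPM (-1.19, -1.58 to -0.81) and *Ddit4* at 149 and 69.7 CPM (-1.09, -1.74 to -0.46). *Tsc22d3* was at 0.69 and 0.03 in the injured pairs.

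The genes ranked highest in the endothelial-like cluster were those of pericytes, the contractile cells that wrap capillaries. *Vtn*, vitronectin, had 11 UMIs under vehicle and 608 under PLX5622 (4.86, 4.01 to 5.87), *Rgs5* 13 and 248 (3.33, 2.52 to 4.25) and the PDGF receptor gene *Pdgfrb* 3 and 93. *Higd1b* and *Kcnj8* had 0 UMIs under vehicle and 105 and 66 under PLX5622. Against a floor of 3 counts for the vehicle cluster *Higd1b* was at 4.20 and *Kcnj8* at 3.53 on the log2 scale. The lower limits of their counting intervals were 3.88 and 3.19. *Myl9*, *Rgs4* and *Ndufa4l2* were at 3.47, 3.80 and 4.22. These UMIs came from few cells: 1 of 82 vehicle cells (1.22%, 0.0309 to 6.61%) and 10 of 76 PLX5622 cells (13.2%, 6.49 to 22.9%) held at least 5 UMIs of pericyte markers, with *Dcn* not counted. The 10 cells had a median of 23171 UMIs, against 5020.5 in the other 66. With those cells left out, *Vtn* had 4 UMIs under vehicle and 1 under PLX5622, *Rgs5* was at 1.53 (0.17 to 3.14), and *Higd1b*, *Kcnj8* and *Pdgfrb* had at most 2 UMIs on either side. The ratios of these pericyte genes thus rested on 10 cells of 1 pool. *Cldn5* was at 0.26 and *Vcam1* at 1.77 (0.90 to 2.73) without those cells. The barrier genes that were lowest lay nearer 0 without them, *Tfrc* at -0.48 (-0.83 to -0.13), *Itm2a* at -0.19 (-0.28 to -0.10) and *Slco1a4* at -0.13 (-0.26 to 0.00). Astrocyte markers were found alike, with at least 5 UMIs in 4 of 82 and 14 of 76 cells.

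Most of the genes ranked lowest rested on single cells as well. *S100a8* and *S100a9*, which neutrophils carry in large amounts, had 465 and 533 UMIs under vehicle and 4 and 8 under PLX5622, and 98.1% and 97.4% of the vehicle UMIs lay in a single cell. *H2-Aa*, of MHC class II, had 122 and 57 UMIs, 95.9% and 96.5% of them in the top cell of each pool. *Bpgm*, an enzyme of red blood cells, had 50.6% of its 87 vehicle UMIs in a single cell. For *Hbb-bs*, a beta-globin, the top cell held 28.1% under vehicle and 46.0% under PLX5622. Without the top cells *Bpgm* was still at -2.19 (-3.07 to -1.36) and *Hbb-bs* at -2.24 (-2.67 to -1.83). The 5 top cells of each pool held 85.0% and 86.1% of the haemoglobin UMIs of this cluster. Of the 106 genes past 2-fold in this cluster 22 had more than 50% of their UMIs of either library in a single cell. A library with few UMIs of the gene, on the lower side, was counted too. For comparison, this count was 8 of 119 in astrocyte-like, 7 of 36 in T cell-like, 2 of 29 in microglia-like and 0 of 68 in ependymal-like cells.

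**Figure D5:**
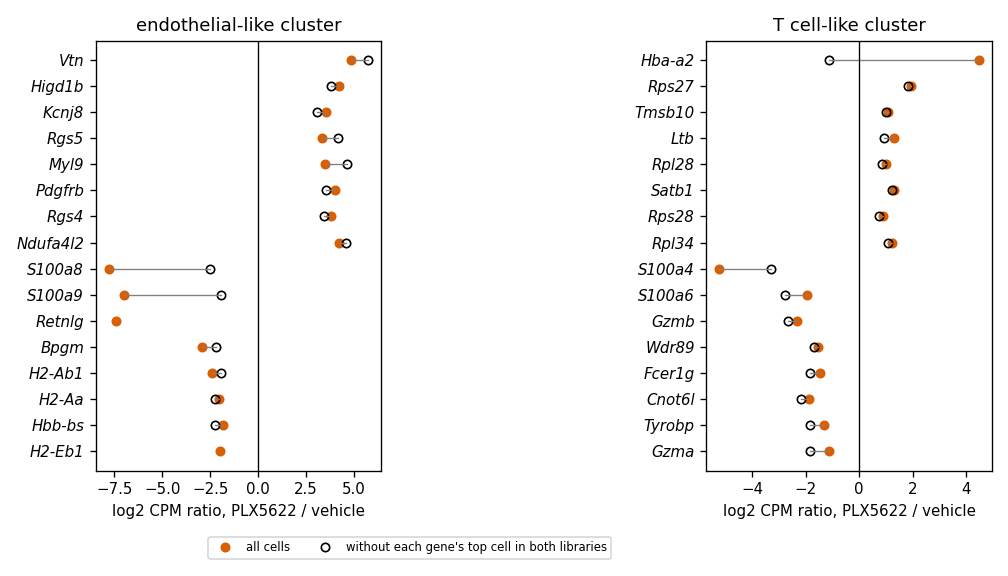
Log2 CPM ratio (PLX5622 over vehicle) of the 8 genes ranked highest and the 8 ranked lowest in the endothelial-like (left) and T cell-like (right) clusters of sham cords, over all cells (filled) and without the top cell of each gene in both libraries (open); genes without an open point had 3 or fewer UMIs left in both. *S100a8* moves from -7.79 to -2.52 and *Hba-a2* from 4.47 to -1.14, while *Vtn* stays above 0 without its top cells.

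The T cell-like cluster held 67 cells under vehicle and 21 under PLX5622. A UMI of *Cd3d*, *Cd3e* or *Cd3g*, subunits of the T cell receptor complex, was found in 41 of 67 vehicle cells (61.2%, 48.5 to 72.9%) and in 17 of 21 PLX5622 cells (81.0%, 58.1 to 94.6%). Cells with a UMI of a natural killer marker and none of these were 25 (37.3%, 25.8 to 50%) and 4 (19.0%, 5.45 to 41.9%). The intervals overlapped, so 21 cells could not separate the 2 makeups.

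Most cytotoxic genes were lower and most T cell genes higher under PLX5622. Of 12 cytotoxic lymphocyte genes 9 were below 0 and 3 of them by 2-fold or more, with a median of -0.50. The median over the 598 genes compared was -0.06, and 1.51% were higher and 4.52% lower by 2-fold or more, 6.02% in all. *Gzma*, a serine protease of cytotoxic granules, had 944 and 160 UMIs (-1.11, -1.36 to -0.87), *Gzmb* 96 and 7 (-2.33, -3.68 to -1.23) and the natural killer receptor *Ncr1* 100 and 18 (-1.03, -1.84 to -0.29). *Ctsw*, a cathepsin of these cells, was the highest of the list at 0.20 (-0.30 to 0.69). Of 7 T cell genes 6 were above 0, with a median of 0.61. *Lef1*, a transcription factor of naive T cells, was at 176 and 383 CPM (1.12, 0.47 to 1.76) and *Cd3e* at 338 and 560 CPM (0.73, 0.23 to 1.22), while the interleukin 7 receptor gene *Il7r* was at -0.69 (-1.26 to -0.15). Beside this, the myeloid list took 5464 CPM in the cluster under vehicle and 2476 CPM under PLX5622, and *Fcer1g* and *Tyrobp*, which natural killer cells also use, were at -1.47 (-1.91 to -1.05) and -1.33 (-1.82 to -0.87).

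The calcium-binding protein gene *S100a4* had 102 UMIs under vehicle and 1 under PLX5622 (-5.22, -10.54 to -2.71), and *S100a6* 334 and 32 (-1.94, -2.51 to -1.41). Higher under PLX5622 were *Tmsb10*, an actin-sequestering thymosin, at 4535 and 9539 CPM (1.07, 0.95 to 1.19), *Ltb*, lymphotoxin beta, at 472 and 1149 CPM (1.29, 0.91 to 1.66), the chromatin organiser *Satb1* at 212 and 521 CPM (1.29, 0.73 to 1.85), and the ribosomal protein genes *Rps27* (1.92) and *Rpl34* (1.23). *Tmsb10* was at 1.08 and 1.07 in the injured pairs, close to its sham value, where the median of all genes of the cluster was 0.27 and 0.17. *Hba-a2*, a globin gene, ranked highest by ratio (4.47), but 98.6% of its 73 UMIs under PLX5622 lay in a single cell.

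The same genes were read in the cells with a *Cd3* UMI alone, 41 under vehicle and 17 under PLX5622. *Gzma* was then at -1.54 (-2.35 to -0.82, 122 and 18 UMIs), *S100a4* at -4.74 (-10.06 to -2.21, 62 and 1 UMIs) and *S100a6* at -1.75 (-2.40 to -1.16). *Ltb* was at 1.17 (0.78 to 1.55), *Satb1* at 1.47 (0.85 to 2.10), *Lef1* at 1.11 (0.43 to 1.78), *Tmsb10* at 1.21 (1.07 to 1.35) and *Il7r* at -0.98 (-1.57 to -0.43). These 8 genes had the direction of the whole cluster, but other cytotoxic genes lay near or above 0, with *Ccl5* at -0.08 (-0.29 to 0.13), *Nkg7* at -0.14 (-0.53 to 0.24), *Ctsw* at 0.40 (-0.26 to 1.04) and *Klre1* at 0.78 (-0.13 to 1.67). *Gzmb*, with 23 and 3 UMIs, was at -1.72 (-4.10 to 0.00). In the cells without a *Cd3* UMI, 26 and only 4, *Gzma* was at -0.30 (-0.57 to -0.04), *Ncr1* at -0.01 (-0.83 to 0.74), *Ccl5* at 0.51 (0.32 to 0.69), *Satb1* at -0.27 (-2.68 to 1.52) and *Lef1* at -0.77 (-6.24 to 2.13). The lower *Ncr1* of the whole cluster was thus not seen among them. In thinned cells of the whole cluster *Gzma* was found in 34.4% and 19.0% of cells, and *S100a6* in 54.1% and 19.0%, against 35.8% and 23.8%, and 65.7% and 42.9%, without thinning. Thinned astrocyte-like cells showed *Gzma* in 0 of 225 and 0 of 127 and *S100a6* in 3.11% and 1.57%. *Gzmb* was found in 22.4% of vehicle and 23.8% of PLX5622 cells without thinning, so its lower ratio was not a lower share of cells there. After thinning these shares were 16.4% (8.15 to 28.1%) and 0 of 21, which allows up to 16.1%. Thinned astrocyte-like cells showed *Gzmb* in 0 of 225 and 0 of 127.

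Ependymal-like cells, 76 and 47 in number, had genes of motile cilia near the vehicle level. Of 20 such genes 16 were below 0 and 4 above, with a median of -0.09 and none past 2-fold. The median of all 3748 genes compared was -0.04, and 0.961% were higher and 0.854% lower by 2-fold or more. *Foxj1*, the master regulator of motile cilia, was at 652 and 648 CPM (-0.01, -0.27 to 0.25). The list ran from *Spef2*, of the central apparatus, at -0.54 (-0.95 to -0.13) to *Dynlrb2*, a dynein light chain, at 0.11 (-0.13 to 0.34).

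As in astrocyte-like cells, *Mt3* was higher, at 5272 and 10076 CPM (0.93, 0.86 to 1.01), with *Mt1* at 0.18 (0.10 to 0.26) and *Mt2* at 0.23 (0.10 to 0.37). It was at 0.65 and 0.68 in the injured pairs. *Arf5* had 15 and 61 UMIs (2.11, 1.28 to 3.04) and *Prdx5* 9 and 38 (2.17, 1.09 to 3.40), so these 2 genes led by ratio in both clusters. *Odf3b*, named for outer dense fibres of sperm tails, was at 134 and 281 CPM (1.06, 0.57 to 1.57) and the cytokine *Mif* at 58.3 and 143 CPM (1.29, 0.56 to 2.07). Of 80 ribosomal protein genes 68 were above 0, 4 of them by 2-fold or more, with a median of 0.28. With each cell weighted alike this median was -0.04, and in the injured pairs it was -0.26 and -0.37, so its sign depended on the cells that carried most UMIs and on the pair of pools.

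*Fos* was the immediate early gene of lowest ratio in ependymal-like cells, with 56 and 8 UMIs (-2.72, -4 to -1.64). The other 7 compared lay between *Cebpb* at -0.85 (-1.63 to -0.11) and *Jund* at 0.53 (0.28 to 0.77), and the median was -0.13. Of 13 heat shock genes 9 were below 0, with a median of -0.21. The 8 genes ranked lowest, *Zfp667*, *Smc5*, *Dzip1*, *Kifap3*, *Pvalb*, *Map1a*, *Tm9sf4* and *Sptlc3*, lay between -1.63 and -1.06 with 33 to 71 UMIs under vehicle and 10 to 32 under PLX5622. In the injured pairs these genes lay on both sides of 0, from -0.87 for *Zfp667* at 28 days to 0.96 for *Dzip1* at 28 days.

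Across the 4 clusters other than microglia, 426 genes could be compared in each, and 125 of them (29.3%) had a ratio of 1 sign in all 4, 59 above 0 and 66 below. Ribosomal protein genes were 25 of the 59 (42.4%) and 5 of the 66, and 75 of the 426 (17.6%). The lowest mean was that of *Wdr89*, at -1.49, -1.29, -1.54 and -1.12 in endothelial-like, astrocyte-like, T cell-like and ependymal-like cells, and at -1.07 in microglia-like cells. *Rps15a-ps6* and *Gm13826* came next, with means of -1.02 and -0.93. Reads of pseudogenes and of ribosomal protein, haemoglobin and *H2* genes can be shared between near-identical copies, so the values of *Rps15a-ps6*, *Gm13826* and *Wdr89* are uncertain. *Jun* was the fifth lowest by mean, at -0.70. *Rpl28* had the highest mean, at 0.82, and was at 0.66, 0.64, 1.00 and 0.99 in the 4 clusters and at 0.92 in microglia-like cells. *Rps28* had a mean of 0.78. The glutathione peroxidase gene *Gpx4*, which protects membranes from lipid peroxidation, was above 0 in the 4 clusters, from 0.43 to 0.83. The 5 clusters of a diet came from the same library, so these rows are not independent of each other, and a difference between the 2 libraries and an effect of the diet cannot be told apart.

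Ligands and receptors around the drug target were read in all clusters, also in those with fewer than 20 PLX5622 cells. *Csf1*, a ligand of the blocked receptor, had 212 UMIs under vehicle and 12 under PLX5622 in macrophage-like cells (0.31, -0.67 to 1.14), 39 and 24 in astrocyte-like cells (-0.29, -1.09 to 0.48) and 17 and 37 in endothelial-like cells (0.19, -0.67 to 1.11). Each of these intervals held 0, so a difference in *Csf1* was not detectable at this depth. *Il34*, the second ligand, had 18 and 14 UMIs in pericyte-like cells (0.76, -0.36 to 1.84) and 1 and 15 in endothelial-like cells (2.98, 0.28 to 8.37), the cluster with the pericyte-marker cells. *Kitl*, the ligand of the related kinase Kit, was at -0.21 (-0.47 to 0.04) in endothelial-like and 0.11 (-0.27 to 0.49) in ependymal-like cells. *Psap*, the lysosomal precursor prosaposin that cells also secrete, was at 2356 and 2852 CPM in microglia-like cells (0.28, 0.13 to 0.42) and at 1152 and 1339.6 CPM in astrocyte-like cells (0.22, 0.08 to 0.36). It was higher by more in monocyte-like cells (1.12, 0.94 to 1.29), with 75 and 14 cells, and in oligodendrocyte lineage-like cells (1.52, 0.85 to 2.16), with 22 and 4. Its receptor gene *Gpr37l1* was at 4811 and 4979.6 CPM in astrocyte-like cells (0.05, -0.02 to 0.12).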

How the data were processed

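Single cells of mouse spinal cord were captured with the Chromium 3' V3 kit. According to the study's methods the authors aligned reads and counted UMIs with Cell Ranger and clustered cells with Seurat, and the submitters' processing notes name the GRCm38 (mm10) build. The deposited count table holds whole-number UMI counts of 16003 genes, not normalized, with the authors' cluster number of each cell beside it. No mitochondrial gene is in the table. The study states an upper limit of 3000 genes per cell, but 116 vehicle and 82 PLX5622 cells exceeded it and were kept. Libraries of injured cords were used only for the ratios at 7 and 28 days, and the bulk samples were not used here.

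UMIs were summed per cluster and library and divided by the cluster's total. CPM values have exact Poisson intervals and ratios exact conditional binomial intervals. Genes needed 20 UMIs expected in the shallower library, and 2-fold was the size used for counts. A gene at 0 was set to a floor of 3 counts, and no ratio was formed where both libraries had 3 or fewer. In each cluster the text names the 8 genes ranked highest and the 8 ranked lowest by the bound nearest 0, among genes whose CPM there was at least 0.25 of that in the highest compared cluster, the extremes and most abundant members of the gene lists, marker and *Csf1r* pathway genes, and genes of 1 sign in 4 clusters. *Tsc22d3*, *Ddit4*, *Ncr1* and *Egr1* outside microglia are named as list members. Members and lists were chosen with earlier results of these data known. For shares of cells with a UMI, cells were thinned to 1000 UMIs. Cells were ranked by their Scrublet doublet score, and the top 26 vehicle and 2 PLX5622 cells were taken as doublets. These numbers were set beforehand by an assumed rate of 0.8% per 1000 barcodes. The threshold of Scrublet itself called 10 and 3 cells. The top-ranked cells were kept in the main values and removed in an alternative. The intervals were run on counts simulated from a Poisson model, which they assume, and held the true ratio for 95.6% of microglia-like genes. Spread between cells or pools was not simulated, so this run does not show how the intervals hold in the real data. Scripts ran in Python 3.11.15 with scipy 1.17.1 for the intervals, pandas 2.3.3 and numpy 2.4.6 for sums, scanpy 1.11.5 for Scrublet and matplotlib 3.10.9 for plots, and R 4.3.3 with edgeR 4.0.16 and DESeq2 1.42.0 for scaling factors only. Other count minimums, weightings, filters on cells and scalings were tried as alternatives. Results for a few genes are not reported here.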

Additional observations from a re-analysis of the deposited data

Results flagged for a closer look

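Among the ranked genes past 2-fold in sham cords, 3 went the opposite way in both injured pairs with all counting intervals clear of 0. Other genes, such as *S100a4* and *Gzmb* in T cell-like cells and *Dusp1* in microglia-like cells, also had opposite signs but did not meet this bar in every pair. In endothelial-like cells the beta-globin gene *Hbb-bs* had a log2 ratio of -1.83 in sham cords, against 2.03 at 7 days and 1.13 at 28 days. In T cell-like cells *S100a6* was at -1.94 in sham cords and at 0.57 and 0.51 after injury, and *Gzma* was at -1.11 in sham cords and at 1.40 and 1.53 after injury. Each ratio rests on 1 pool per diet and the differences between pairs were not tested.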

How the results depend on the processing

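No paired analysis was possible because each group was 1 pool, and leaving out a replicate was not possible for the same reason. Counts of genes past 2-fold are given in the order microglia-like, endothelial-like, astrocyte-like, T cell-like and ependymal-like, and were 29, 106, 119, 36 and 68. With at least 10 UMIs expected they were 134, 308, 370, 118 and 327, and with at least 50 they were 11, 24, 27, 10 and 7, since fewer genes were compared. With cells thinned to 1000 UMIs they were 5, 21, 19, 10 and 6. With each cell weighted alike they were 60 in microglia-like, 164 in endothelial-like, 370 in astrocyte-like and 330 in ependymal-like cells, the median of the myeloid list in astrocyte-like cells was -2.08, that of ribosomal protein genes in ependymal-like cells -0.036, and *Dzip1* there 0.24. In cells with fewer than 3 myeloid UMIs the counts were 57 in endothelial-like, 61 in astrocyte-like and 29 in ependymal-like cells, and *Myl9* and *Rgs4* in endothelial-like cells were at -2.38 and -2.21. For T cell-like cells that filter left 6 and 1 cells and gave no value. After thinning *Apoe* was at -0.20 in microglia-like, *Rpl34* at 0.16 in T cell-like, *Hbb-bs* at -0.08 and *Map7d2* at -0.50 in astrocyte-like and *Sptlc3* at -0.26 in ependymal-like cells, all nearer 0, and *Alas2* was at 0.063 in astrocyte-like and *Map1a* at 0.48 in ependymal-like cells. With the cells of highest Scrublet score removed *H2-Aa*, *H2-Ab1* and *H2-Eb1* were at 2.44, 1.93 and 2.67 in endothelial-like cells. Outside the microglia-like cluster the vehicle shares were 27.7% astrocyte-like, 7.31% endothelial-like, 5.98% T cell-like and 6.78% ependymal-like, and with erythroid-like cells also left out 31.0%, 8.19%, 6.69% and 7.59%. Settings chosen after seeing the data were leaving out the top cell of each gene, with 61 genes past 2-fold in microglia-like and 56 in T cell-like cells and *Hba-a2* at -1.14, and leaving out pericyte-marker cells, with *Vtn* at -2.20 in endothelial-like cells. Leaving out the top cell takes a larger part of the pool with fewer cells, here PLX5622, which by itself lowers ratios. Apart from the cases where the number of genes or cells compared differs, the cause was not tested. Among the values of named genes under all settings tried, 823 lay within the counting interval of the reported value. Another 107 lay outside it and 10 turned in sign. The minimums of 10 and 50 UMIs and the filter on a gene's CPM relative to its highest cluster only selected genes. They could not move a ratio, so their 80 values each are no check. Scaling by TMM or by DESeq2 size factors moved all ratios of a cluster by at most 0.052, with 79 and 80 within the interval. With each cell weighted alike 52 lay within it, 27 outside and 1 turned in sign. After thinning these numbers were 42, 31 and 2.

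With 29 and 21 PLX5622 cells, the microglia-like and T cell-like clusters allowed 990 and 598 genes to be compared, and a lower level of a rarer gene was not detectable there.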
